A study of Homo sapiens with 2 samples.

Results

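The genes described here are 10 human genes of the immunoproteasome and of peptide loading: PSMB8, PSMB9 and PSMB10, PSME1 and PSME2, TAP1, TAP2, TAPBP, ERAP1 and ERAP2. They were chosen by name, as rows of a matrix of 36601 genes, and all 10 were measured. The cells were OVCAR5, a human ovarian carcinoma cell line. They had been grown as tumours in NSG mice that also lacked beta-2-microglobulin (NSG-b2m-/-), a host strain without T, B and NK cells of its own. The tumours were cut up and digested, and the cells were then exposed to recombinant cytokines ex vivo for 6 h. All cells carried a reporter that senses IFN-gamma and were sorted for cyan fluorescent protein (CFP+, described as bystander cells). The labels list 5 entries each of cells given both cytokines (IFN-gamma at 100 ng/ml, TNF-alpha at 10 ng/ml), of cells given that dose of TNF-alpha alone and of unstimulated cells, in a pool of 5 tumours. Cells of all entries were tagged with hashtag antibodies, pooled and read in 1 droplet-based single-cell 3′ library, so the single line and the single library are shared by every value below.

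No label ties a hashtag to a treatment. Each cell carried a pair of hashtags, the 15 pairs are called hashed samples, and they were arranged in 3 sets of 5 that had been inferred from this same library. The set inferred as IFN-gamma plus TNF-alpha ("both") held HTO2+HTO7, HTO3+HTO6, HTO3+HTO9, HTO4+HTO6 and HTO4+HTO9. The set inferred as TNF-alpha alone ("TNF") held HTO2+HTO6, HTO2+HTO10, HTO3+HTO5, HTO3+HTO8 and HTO4+HTO8. The set inferred as no cytokine ("none") held HTO2+HTO5, HTO2+HTO8, HTO3+HTO7, HTO4+HTO7 and HTO4+HTO10. Values listed by set keep these orders. Because expression values may have gone into the inference, differences between sets are descriptions, with no test, mean or standard deviation, and which pair came from which tumour was not known. At the border of the sets, IRF1, an interferon-induced transcription factor, was at 36.6 or more in the both set, against at most 4.01 in the TNF set and 1.08 in the none set. NFKBIA, an NF-kappa-B target, was at 10.5 or more in the TNF set, against at most 1.47 in the none set. These and all levels below are summed unique molecular identifiers (UMIs) per 10000 UMIs of the hashed sample, and their 95% intervals are exact Poisson ones, for the error of counting alone.

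The proteasome cuts proteins into peptides. Its constitutive core uses the catalytic subunits PSMB5, PSMB6 and PSMB7, and interferon-exposed or immune cells build in PSMB8, PSMB9 and PSMB10 instead, which shifts the peptides towards ends that MHC class I molecules can bind. PSME1 and PSME2 form the PA28 cap that opens the core. TAP1 and TAP2 pump the peptides into the endoplasmic reticulum, where tapasin (TAPBP) holds empty MHC class I molecules at the pump and the aminopeptidases ERAP1 and ERAP2 trim peptide ends. IFN-gamma is known to induce this machinery, in part through IRF1, and TNF-alpha acts mainly through NF-kappa-B.

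In the GENCODE 29 annotation of GRCh38, TAP2 (chr6:32821833-32838780, minus strand), PSMB8 (chr6:32840717-32844703, minus), PSMB9 (chr6:32844136-32859585, plus) and TAP1 (chr6:32845209-32853978, minus) were neighbours in the MHC region, with TAPBP (chr6:33299694-33314387, minus) on the same chromosome. PSME1 (chr14:24136158-24138967, plus) and PSME2 (chr14:24143362-24147570, minus) were neighbours, as were ERAP1 (chr5:96760810-96808100, minus) and ERAP2 (chr5:96875939-96919716, plus). PSMB10 (chr16:67934502-67937087, minus) stood alone.

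The promoter stretches below are shown because they hold the interferon-type motif that most of these genes share. RefSeq windows of 250 bases before and 50 bases from the start site on (GRCh38.p14) were found for all 10 genes, 14 windows in all. The ISRE core, GAAANNGAAA, is a binding sequence of IRF factors. It was searched on both strands, and it was chosen as a motif after the windows had been read. It was present in 1255 of 35116 windows of all genes (3.57%) and in 9 of the 14 windows here. Those 9 windows belonged to 9 different genes, all but PSMB9. Each stretch is given 5′ to 3′ on the strand of its gene, with the ISRE core in capitals (where it lies on the other strand, its reverse complement is capitalised).
TAP1 (minus, chr6:32853808-32853853): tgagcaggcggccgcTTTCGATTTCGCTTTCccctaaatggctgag
TAP2 (minus, chr6:32838773-32838812): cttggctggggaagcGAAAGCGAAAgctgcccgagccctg
TAPBP (minus, chr6:33314068-33314113): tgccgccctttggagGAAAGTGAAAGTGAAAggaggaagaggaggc
PSMB8 (minus, chr6:32844027-32844066): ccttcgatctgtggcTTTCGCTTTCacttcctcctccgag
PSMB10 (minus, chr16:67936847-67936886): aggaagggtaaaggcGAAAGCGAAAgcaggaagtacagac
PSME1 (plus, chr14:24136184-24136223): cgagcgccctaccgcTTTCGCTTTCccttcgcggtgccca
PSME2 (minus, chr14:24146614-24146653): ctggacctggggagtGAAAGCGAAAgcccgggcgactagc
ERAP1 (minus, chr5:96807919-96807958): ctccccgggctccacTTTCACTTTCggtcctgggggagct
ERAP2 (plus, chr5:96876455-96876494): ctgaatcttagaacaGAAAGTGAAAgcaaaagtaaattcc

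TAP1 and TAPBP each held a pair of ISRE cores that overlap by 4 bases. In TAP1 the pair covered bases -134 to -119 from the start site, and in TAPBP -20 to -5. In the other 7 genes the single core lay between bases -58 and 15. The TAP1 window (chr6:32853655-32853954) ran head to head with that of PSMB9 (chr6:32853942-32854241), and the windows overlapped by 13 bases. The TAP1 cores (chr6:32853823-32853838) thus also lay upstream of the PSMB9 start, but beyond the 250 bases searched for PSMB9. The TAP1 window is printed whole, since it is the only window here that also held a kB motif. The kB motif, the NF-kappa-B binding sequence, was searched as GGGA, any base, TT, any base and CC, on both strands, and was present in 491 windows of all genes (1.40%). In TAP1 it lay at bases -72 to -63. Capitals mark the ISRE cores and then the kB motif.
TAP1 (minus, chr6:32853655-32853954): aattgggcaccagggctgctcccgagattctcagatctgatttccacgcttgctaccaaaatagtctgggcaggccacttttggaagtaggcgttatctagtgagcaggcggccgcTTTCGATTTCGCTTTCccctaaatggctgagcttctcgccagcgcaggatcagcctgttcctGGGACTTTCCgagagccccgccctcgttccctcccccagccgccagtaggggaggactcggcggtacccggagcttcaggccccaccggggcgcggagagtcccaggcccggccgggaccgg
The GAS motif TTCNNNGAA, an interferon-gamma response element, was present in 2689 windows of all genes (7.66%), and here in 1 window of PSMB8 and in the second TAP1 window. The constitutive subunit PSMB5 had 2 windows, with no ISRE core and with GAS motifs in 1 of them. PSMB6 and PSMB7 were not analysed for motifs. A match describes letters in the window and not binding, and its part in the levels below was not tested.

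**Figure D1:**
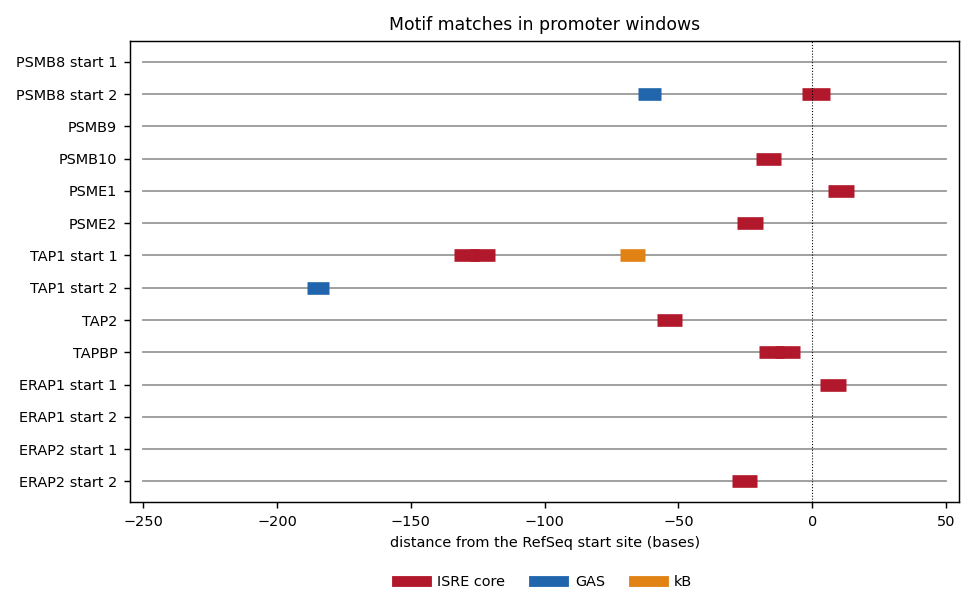
Positions of ISRE core, GAS and kB motif matches in the 14 RefSeq promoter windows of the 10 genes, as distance from the RefSeq start site in bases, where each grey line is 1 window. The ISRE core was found in 9 windows and the kB motif in the first TAP1 window alone.

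The library held 5269 barcodes. A floor of 1000 genes seen and a ceiling of 20% for the mitochondrial share of UMIs left 3538 cells, of which 3144 had a clear hashtag pair. The hashed samples held 49 to 630 cells and 582102 to 7324691 UMIs, with median depths of 10942 to 12405 UMIs per cell and median mitochondrial shares of 12.2% to 14.7%. The 10 genes had 649 to 15769 UMIs in a hashed sample. Of 13 epithelial tumour markers none was at 0 counts, and their summed level was 41.1 to 49.2 in the both set, 46.0 to 67.8 in the TNF set and 73.4 to 90.8 in the none set. Of 8 T or NK cell markers, CD3D, CD3E, CD8B, CD2, NKG7 and GNLY were at 0, and the summed level of the list was at most 0.0859, 0.167 and 0.0103 in the both, TNF and none sets. CD69, of the same list, was higher in the both set and in the TNF set than in the none set, without overlap. Of 9 myeloid markers none was at 0, and their summed level was 0.365 to 0.620, 0.326 to 0.621 and 0.359 to 0.623 in those sets. B cell, fibroblast and erythroid lists did not exceed 0.0519 in any hashed sample, and the endothelial list lay between 0.440 and 0.617. Its 6 markers included KDR at 0. The part of these markers in the results below was not tested.

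Within every set, 1 hashed sample with HTO3 was the lowest for most of the genes. HTO3+HTO9 was the lowest of the both set for 7 of the 10 genes, though the highest for TAP2 and ERAP1, HTO3+HTO5 the lowest of the TNF set for 7, and HTO3+HTO7 the lowest of the none set for 8. They held 53, 49 and 71 cells, among the 4 lowest cell numbers. Of the chaperones on the list of peptide loading partners, they had the highest levels of HSPA5 in their sets, at 12.6, 13.6 and 11.0, and of HSP90B1, at 14.9, 16.9 and 14.5. HTO3+HTO8, by contrast, was the highest of the TNF set for all 10 genes. The part of the hashtag, of cell number and of these chaperones in the low levels was not tested.

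The 3 immunoproteasome subunits were highest in the 5 hashed samples of the both set. PSMB9, which takes the place of PSMB6, was at 6.00, 6.98, 5.43, 5.85 and 6.11 in the both set, 1.33, 1.32, 0.533, 1.77 and 1.31 in the TNF set, and 0.994, 0.831, 0.793, 0.854 and 1.24 in the none set. The both set stood clear of the rest, whereas the TNF and none sets overlapped because of HTO3+HTO5. The lowest both-set level was 3.06 times the highest TNF-set level (95% interval 2.72 to 3.45) and 4.39 times the highest none-set level (3.80 to 5.07). Without HTO3+HTO5, each TNF-set sample was above each none-set sample for PSMB9.

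PSMB8, which takes the place of PSMB5, was at 4.20, 4.63, 3.39, 3.75 and 4.29 in the both set, 1.55, 1.48, 0.773, 1.77 and 1.44 in the TNF set, and 1.27, 1.22, 0.749, 1.28 and 1.38 in the none set. Again the both set stood clear, and HTO3+HTO5 and HTO3+HTO7 were the lowest of their sets, at nearly the same level. The lowest both-set level was 1.92 times the highest TNF-set level (1.66 to 2.22) and 2.46 times the highest none-set level (2.09 to 2.90). PSMB10, which takes the place of PSMB7, was at 2.37, 2.21, 2.22, 2.31 and 2.52 in the both set, 1.01, 1.07, 1.05, 1.21 and 1.10 in the TNF set, and 1.13, 0.987, 0.937, 1.07 and 0.973 in the none set. It was the most even of the 3 within sets, with a gap of 1.82 (1.66 to 2.01) between the both and TNF sets and overlapping TNF and none sets. For PSMB10, HTO3+HTO5 was neither the lowest nor the highest of its set.

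**Figure D2:**
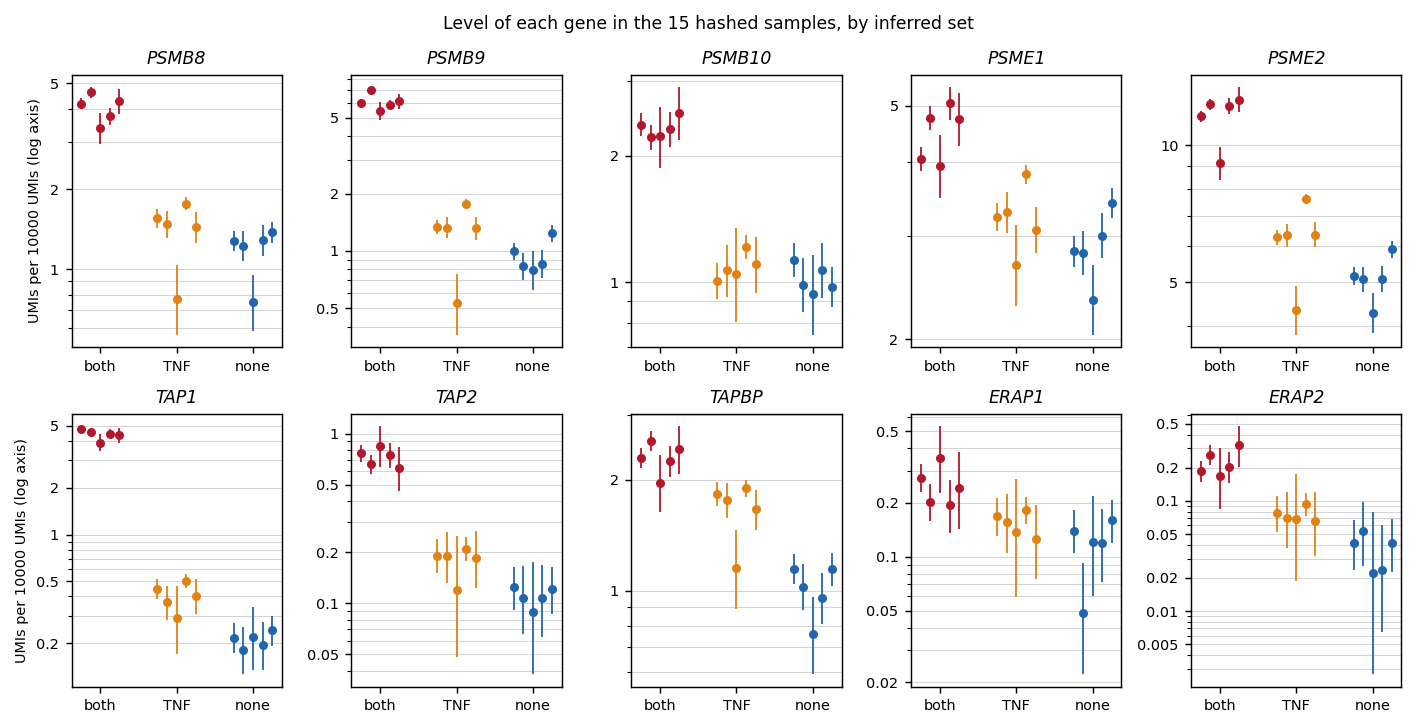
Level of each of the 10 genes (UMIs per 10000 UMIs, log axes that differ between panels) in the 15 hashed samples, arranged by inferred set, with exact 95% Poisson intervals. In all 10 panels the 5 points of the both set lie above those of the TNF and none sets. The gap to the TNF set is 7.78 times for TAP1 and 1.03 times for PSME1 and TAPBP.

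The constitutive subunits moved little. PSMB5 was at 2.88, 2.74, 2.87, 3.03 and 2.94 in the both set, 3.36, 3.20, 3.59, 3.11 and 3.06 in the TNF set, and 3.60, 3.73, 3.17, 3.64 and 3.41 in the none set, so that it was lower in the both set without overlap. That order was lost under scaling by size factors (medians of ratios to the mean over samples), where PSMB5 overlapped between all sets, and where PSMB6 as well as PSMB7 was higher in the both set than in the none set. PSMB6 lay between 2.63 and 3.02 in all 15 hashed samples, and PSMB7 at 1.63 to 1.87 in the both set, 1.42 to 1.79 in the TNF set and 1.32 to 1.54 in the none set.

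Set against these counterparts, the immunoproteasome subunits made up the larger part of catalytic subunit counts in the both set. PSMB8, PSMB9 and PSMB10 together held 62.9%, 66.1%, 59.9%, 61.3% and 62.5% of the UMIs of the 6 catalytic subunits in the both set, 33.5%, 33.2%, 22.2%, 39.4% and 34.2% in the TNF set, and 30.03%, 27.1%, 25.8%, 28.7% and 32.0% in the none set. The both set did not overlap with the rest, and 4 of the 5 TNF-set samples were above every none-set sample. The exception was HTO3+HTO5, the lowest of all 15, at 22.2% (Wilson interval 19.1% to 25.7%). The share does not depend on the scaling of a sample, but 3′ counts of different genes are not amounts of protein or of transcript per length, so it is to be compared across samples only.

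**Figure D3:**
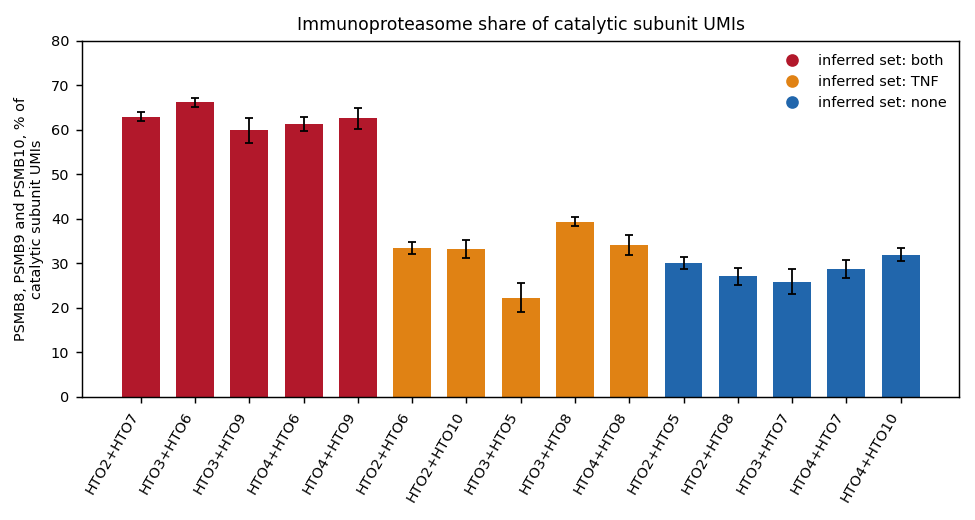
Share of PSMB8, PSMB9 and PSMB10 in the UMIs of the 6 catalytic subunits (percent) in the 15 hashed samples, coloured by inferred set, with 95% Wilson intervals. Bars of the both set run from 59.9% to 66.1%, those of the TNF set from 22.2% to 39.4% and those of the none set from 25.8% to 32.0%.

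The 3 pairs of counterpart subunits were unequal. The PSMB9 to PSMB6 count ratio was 2.02 to 2.58 in the both set, 0.186 to 0.636 in the TNF set and 0.284 to 0.429 in the none set. The PSMB8 to PSMB5 ratio was 1.18 to 1.69, 0.215 to 0.568 and 0.236 to 0.404 in the both, TNF and none sets. The PSMB10 to PSMB7 ratio was 1.19 to 1.42, 0.587 to 0.853 and 0.648 to 0.792 in those sets. Each ratio was higher in the both set than in the others without overlap. Between immunoproteasome subunits, the PSMB8 to PSMB9 ratio was lower in the both set, at 0.625 to 0.702, against 0.997 to 1.45 in the TNF set and 0.944 to 1.50 in the none set.

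The PA28 genes stood higher in the both set as well, PSME2 more than PSME1. PSME2 was at 11.6, 12.3, 9.13, 12.2 and 12.6 in the both set, 6.28, 6.33, 4.35, 7.61 and 6.36 in the TNF set, and 5.16, 5.07, 4.29, 5.08 and 5.90 in the none set. The lowest both-set sample, HTO3+HTO9, was 1.20 times the highest TNF-set sample (1.10 to 1.31), and 4 of the 5 TNF-set samples were above all none-set samples. PSME1 was at 4.06, 4.77, 3.95, 5.05 and 4.74 in the both set, 3.23, 3.29, 2.68, 3.82 and 3.07 in the TNF set, and 2.82, 2.80, 2.34, 3.001 and 3.41 in the none set. For PSME1 the gap between the both and TNF sets, 1.03 (0.905 to 1.17), was within counting error, and that between the both and none sets was 1.16 (1.01 to 1.33). The PSME1 to PSME2 count ratio was 0.351 to 0.432 in the both set, 0.483 to 0.617 in the TNF set and 0.545 to 0.590 in the none set. The cap subunits thus differed in size of change: their ratio was lower in the both set than in the others without overlap.

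TAP1 had the widest range of the 10 genes. It was at 4.76, 4.58, 3.90, 4.46 and 4.36 in the both set, 0.448, 0.366, 0.292, 0.501 and 0.401 in the TNF set, and 0.217, 0.182, 0.220, 0.196 and 0.242 in the none set. The 3 sets did not overlap. The lowest both-set level was 7.78 times the highest TNF-set level (6.61 to 9.16) and 16.1 times the highest none-set level (12.5 to 20.9). The lowest TNF-set level, from 17 UMIs in HTO3+HTO5, was 1.21 times the highest none-set level, with an interval of 0.671 to 2.05 that includes 1, so this last step rested on few counts. After thinning of cells to 5000 UMIs, TAP1 overlapped between the TNF and none sets.

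TAP2, the partner of TAP1 in the pump, was at 0.764, 0.660, 0.848, 0.746 and 0.628 in the both set, 0.190, 0.188, 0.120, 0.209 and 0.184 in the TNF set, and 0.124, 0.107, 0.0882, 0.107 and 0.121 in the none set. The both set stood clear, by 3.01 times (2.12 to 4.19) over the TNF set. In the TNF set 4 of the 5 samples were above all none-set samples, and HTO3+HTO5, with 7 UMIs, was not. The TAP1 to TAP2 count ratio was 4.60 to 6.94 in the both set, 1.94 to 2.43 in the TNF set and 1.70 to 2.50 in the none set, so the subunits of the pump differed in size of change.

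TAP1 and PSMB9 start head to head, and their levels also differed in size of change. The PSMB9 to TAP1 count ratio was 1.26 to 1.52 in the both set, 1.82 to 3.62 in the TNF set and 3.60 to 5.11 in the none set. The both set lay below the TNF set without overlap. The TNF and none sets just overlapped. In the annotation PSMB9 and TAP1 share 8770 bases on opposite strands, and no source used here says whether reads were counted by strand, so reads in the shared stretch cannot be told apart on that ground. PSMB8 likewise overlaps PSMB8-AS1, whose own level did not exceed 0.107 in any hashed sample. On the same strand, TAP2 shares 16948 bases, its whole length, with AL669918.1, and PSMB10 shares 1516 bases with AC040162.1. PSMB9 shares 2360 bases with PSMB8-AS1 on the same strand, and PSME2 shares 77 bases with MIR7703. Strand cannot tell such reads apart, so the levels of TAP2, PSMB10, PSMB9 and PSME2 are uncertain in that respect. So are the count ratios that use them, such as TAP1 to TAP2.

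Tapasin differed from the genes above in its spacing. TAPBP was at 2.30, 2.56, 1.96, 2.25 and 2.42 in the both set, 1.83, 1.76, 1.15, 1.90 and 1.66 in the TNF set, and 1.15, 1.02, 0.760, 0.955 and 1.14 in the none set. The lowest both-set level was only 1.03 times the highest TNF-set level (0.853 to 1.24), within counting error, but 1.71 times the highest none-set level (1.39 to 2.08). In the TNF set 4 of the 5 samples, at 1.66 to 1.90, lay nearer to the both set than to the none set, while HTO3+HTO5, at 1.15, lay beside the highest none-set sample, with a ratio of 1.00 (0.765 to 1.30).

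The aminopeptidases had the fewest counts. ERAP2 was at 0.187, 0.263, 0.170, 0.204 and 0.321 in the both set, 0.0775, 0.0700, 0.0687, 0.0942 and 0.0657 in the TNF set, and 0.0413, 0.0536, 0.0220, 0.0237 and 0.0413 in the none set. The 3 sets did not overlap, yet the gap from the both to the TNF set, 1.80, had an interval of 0.859 to 3.42. The gap from the TNF to the none set, 1.22, had one of 0.457 to 3.28. Against the none set the both set stood higher by 3.16 times (1.22 to 8.31).

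ERAP1 was at 0.275, 0.201, 0.355, 0.193 and 0.240 in the both set, 0.168, 0.156, 0.137, 0.182 and 0.125 in the TNF set, and 0.139, 0.0483, 0.121, 0.119 and 0.159 in the none set. The both set stood above the rest by 1.06 times (0.715 to 1.55) over the TNF set and 1.21 times (0.772 to 1.88) over the none set, both within counting error. Its lowest level, in HTO2+HTO8, came from 9 UMIs. Without that sample the range of ERAP1, highest over lowest, was 2.99 in place of 7.35. ERAP1 shares 18786 bases with CAST on the opposite strand and ERAP2 lies within an antisense gene, so their low counts carry the same limit on strand as PSMB9 and TAP1.

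By function, the TAP1, TAP2 and TAPBP sum was 6.71 to 7.82 in the both set, 1.56 to 2.61 in the TNF set and 1.07 to 1.50 in the none set. The sum of PSMB8, PSMB9 and PSMB10 was 11.0 to 13.8, 2.35 to 4.75 and 2.48 to 3.59 in the both, TNF and none sets, that of PSME1 and PSME2 13.1 to 17.3, 7.03 to 11.4 and 6.62 to 9.31, and that of ERAP1 and ERAP2 0.397 to 0.561, 0.190 to 0.276 and 0.102 to 0.201. For all 10 genes together it was 31.3 to 39.2, 11.1 to 19.1 and 10.3 to 14.6, a sum in which PSME2 is the largest term. Only the sum of the peptide loading genes TAP1, TAP2 and TAPBP separated all 3 sets, and its step from TNF to none was small. The lowest TNF-set sum was 1.56 (1.26 to 1.92), from 91 UMIs in HTO3+HTO5. The highest none-set sum was 1.50 (1.38 to 1.64) in HTO4+HTO10, and these intervals overlap.

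The range over the 15 hashed samples, highest over lowest, needs no sets. A gene was called wide where that ratio was at least 4 and the lower bound of its interval at least 2. This held for 6 of the 10 genes, beside 10.0% of the 9361 genes with a mean level of at least 0.05. The 6 were TAP1 at 26.1 (18.6 to 37.8), ERAP2 at 14.5 (3.61 to 127), PSMB9 at 13.1 (9.21 to 19.3), TAP2 at 9.62 (4.56 to 23.4), ERAP1 at 7.35 (3.27 to 18.0) and PSMB8 at 6.18 (4.85 to 7.99). The lowest ERAP2 level came from 2 UMIs in HTO3+HTO7, which the rule put at 3, so its place among the 6 is uncertain. The other 4 were TAPBP at 3.36 (2.63 to 4.35), PSME2 at 2.94 (2.61 to 3.32), PSMB10 at 2.70 (2.08 to 3.52) and PSME1 at 2.16 (1.86 to 2.52). PSMB8 was thus the narrowest of the 6 and TAPBP the widest of the other 4. PSMB8 fell under the limit, at 3.79, without the 4 samples of fewest cells as well as without HTO3+HTO5, HTO3+HTO7 and HTO3+HTO9. At a mitochondrial limit of 10%, which leaves few cells, PSMB10 was at 10.7 and PSME2 at 4.50. The median ratio of the 10 genes was 6.76, against 2.41 over all 9361 genes.

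Between sets, all 10 genes were higher in the both set than in the none set without overlap, as were 8.57% of the 9361 genes. All 10 were also higher in the both set than in the TNF set, as were 5.70% of genes. At a mitochondrial limit of 10% this held for 6, without PSME1, TAPBP, ERAP1 and ERAP2, and for 2.89% of all genes. After thinning of cells to 5000 UMIs it held for 7, without PSME1, TAPBP and ERAP1 (4.42% of all genes), and with the mean over cells for 8, without PSME1 and ERAP1 (5.47%). TAP1, TAPBP and ERAP2, 3 of the 10, were higher in the TNF set than in the none set, as were 4.04% of genes. Without HTO3+HTO5, PSMB8, PSMB9, PSME2 and TAP2 joined them, which made 7, while the share of all genes was 6.04%. At a mitochondrial limit of 30% the genes with this order were TAP1, TAP2 and ERAP2 (4.10% of all genes). The same 3 held it with the second hashtag at least 10 times the third (4.10%). With at least 2000 genes seen they were TAP1, TAP2 and TAPBP (4.06%). The sets had been inferred from the same library, so nothing is read from these counts about the genes.

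The rest of the proteasome showed which of its parts moved with these genes. None of the 3 constitutive catalytic subunits and none of 17 subunits of the regulatory cap was called wide. None of the 17 was higher in the both set than in either other set, except PSMC3 over the TNF set under size factors. The 17 highest over lowest ratios had a median of 1.31, with PSMD8 the narrowest and PSMD11 the widest. Of 11 other core subunits none was called wide either, but 8 were higher in the both set than in the none set and 7 higher than in the TNF set, and none was lower. PSMA6, the core subunit with the widest range, was at 8.89 to 10.6 in the both set, 5.94 to 7.81 in the TNF set and 3.63 to 4.01 in the none set. PSMA6 separated all 3 sets without being one of the exchanged subunits.

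Of 8 other activators and assembly factors, POMP, the chaperone that helps build new core particles, was higher in the both set, at 9.86 to 11.8, against 5.87 to 6.84 in the TNF set and 5.37 to 5.99 in the none set. PSMG3, another core assembly chaperone, ran the other way, at 0.574 to 0.771 in the both set, 0.774 to 1.01 in the TNF set and 1.10 to 1.41 in the none set. PSME4, an alternative core activator, was at 0.216 to 0.287, 0.302 to 0.442 and 0.298 to 0.391 in the both, TNF and none sets. PSMG3 and PSME4 were each lower in the both set than in both other sets without overlap. PSMG1, a further assembly chaperone, was at 0.333 to 0.394, 0.466 to 0.657 and 0.513 to 0.658 in the both, TNF and none sets, and was lower in the both set under each scaling. Size factors raised all both-set levels by 0.133 to 0.172 on the log2 scale. With them PSME4 overlapped, and PSMG3 was lower in the both set than in the none set only.

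Of 10 peptide loading partners, LAP3, a cytosolic aminopeptidase, was called wide, with 3.61 to 4.82 in the both set, 0.447 to 0.729 in the TNF set and 0.408 to 0.637 in the none set. TAPBPL, a peptide editor related to tapasin, was at 0.118 to 0.185, 0.0754 to 0.113 and 0.0751 to 0.0973 in the both, TNF and none sets. CALR, CANX and PDIA3, the general folding factors of the loading complex, overlapped between the sets, except PDIA3 under size factors, where the both set was above the none set. NPEPPS, another cytosolic aminopeptidase, was lower in the both set than in the none set, an order that was lost under size factors.

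Of 9 MHC class I chains and regulators, 5 were called wide and all 9 were higher in the both set than in the none set. The median of their ratios was 5.21. HLA-E, a non-classical class I chain, was at 6.78 to 7.35 in the both set, 1.77 to 2.39 in the TNF set and 1.41 to 1.67 in the none set. B2M, the light chain, was at 45.5 to 65.0, 23.7 to 41.0 and 22.8 to 34.8 in those sets. NLRC5, the transactivator of class I genes, was at 0.293 to 0.387 in the both set and at most 0.0539 in the others.

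**Figure D4:**
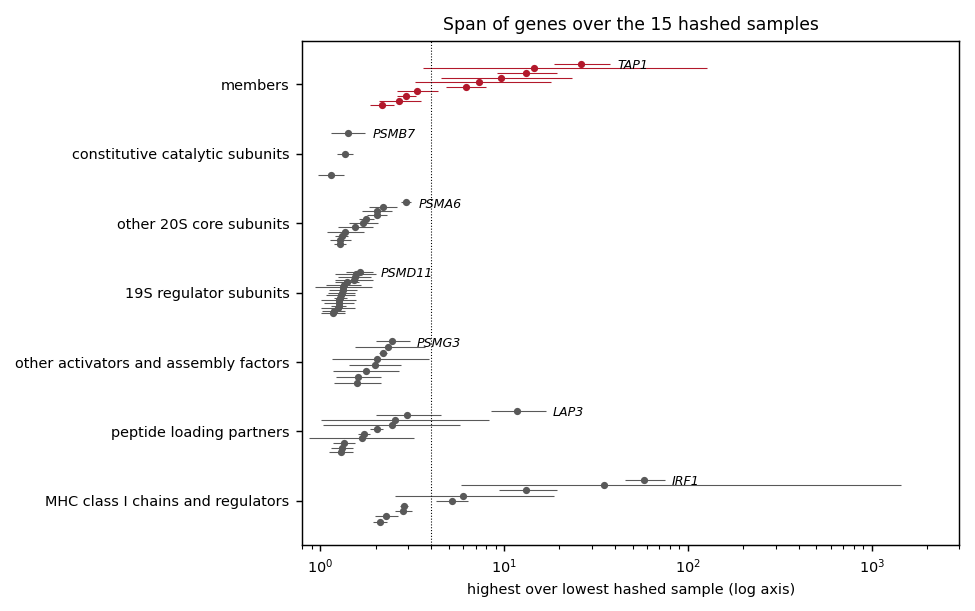
Highest over lowest level among the 15 hashed samples (log axis) for each gene of 7 lists, with 95% intervals and the gene of the widest range named per list. The dotted line marks 4, which 6 of the 10 immunoproteasome and peptide loading genes exceed, as do 5 of 9 MHC class I genes and none of the 17 regulatory cap subunits.

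Single cells were compared after thinning each to 5000 UMIs, which kept 2928 cells and left out 216. The median cell had 18, 19, 14, 17 and 20 UMIs of the 10 genes in the both-set samples, 7, 7, 4, 9 and 7 in the TNF-set samples, and 6, 5, 4, 6 and 7 in the none-set samples. The 95th percentile of the none-set cells was 13 UMIs. The share of cells above it was 76.6%, 80.2%, 57.1%, 76.2% and 81.4% in the both set, 8.28%, 11.4%, 2.22%, 17.8% and 9.40% in the TNF set, and 4.10%, 3.65%, 0%, 3.17% and 6.30% in the none set. In each both-set sample most cells were thus above that percentile, with the lowest share in HTO3+HTO9.

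**Figure D5:**
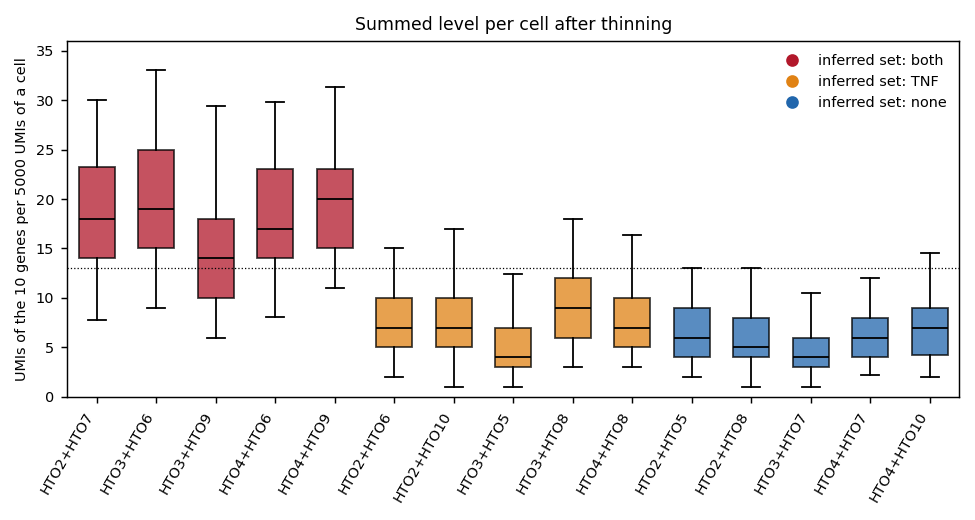
UMIs of the 10 genes per 5000 UMIs of a cell in the 15 hashed samples, coloured by inferred set, where boxes run from the 25th to the 75th percentile of cells, the line is the median and whiskers run from the 5th to the 95th percentile. The dotted line is the 95th percentile of none-set cells (13 UMIs), which the median cell of all 5 both-set samples exceeds.

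After thinning, TAP1 was seen in 81.6% to 89.9% of cells in the both set, 4.44% to 23.1% in the TNF set and 7.30% to 13.5% in the none set (unthinned 92.8% to 98.4%, 24.5% to 40.5% and 18.3% to 22.4%). The thinned TNF and none shares of TAP1 overlapped because of HTO3+HTO5, the 4.44% sample, in which 2 of 45 cells had a UMI. PSMB9 was seen in 77.6% to 93.1%, 17.8% to 52.6% and 19.7% to 38.9% of cells in the both, TNF and none sets (unthinned 90.6% to 98.0%, 30.6% to 70.2% and 38.0% to 63.6%). PSME2 was seen in most cells everywhere, in 98.3% to 100%, 84.4% to 94.9% and 80.3% to 93.0%. At the other end ERAP2 was seen in 6.12% to 15.3%, 1.71% to 4.92% and 0% to 2.22% of cells. No cell type that lacks these genes was in the pool, so the share that free RNA in the droplets gives was not measured.

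The summed level was also set against cell quality. Levels are divided by all UMIs, mitochondrial ones included, so a higher mitochondrial share lowers them by arithmetic alone. Within the hashed samples, cells were split at the median mitochondrial share, and the ratio of the summed level above it to that below it was 0.851 to 1.39, and it was below 1 in 12 of 15. Barcodes removed by the filters on genes and mitochondrial share had a lower summed level than kept cells of the same hashed sample in 15 of 15, by a ratio of 0.520 to 0.881. Their median mitochondrial shares were 28.0% to 42.7%, and whether these genes were lower apart from that share was not tested. The removed barcodes lay at 16.9 to 25.1 in the both set, 9.44 to 13.998 in the TNF set and 7.06 to 11.2 in the none set. Their immunoproteasome share was 53.1% to 62.9%, 29.7% to 37.5% and 28.0% to 34.4% in those sets. In removed as in kept barcodes, the both set did not overlap with the others on either measure.

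For each gene, alike genes were sought among 2876 genes with a mean level of at least 0.5, by the root mean square difference of centred log2 levels over the 15 hashed samples. The measure describes likeness across these samples, which differ mainly by set. The 2876 genes held 7 of the 10, since TAP2, ERAP1 and ERAP2 were under that floor. TAP1 was nearest to GBP2 (0.220), SAMD9L (0.315) and PARP14 (0.316), interferon-induced genes, and its nearest gene among those 7 was PSMB9 (0.737). PSMB9 was near to UBE2L6 (0.202) and SP110 (0.261), and PSMB8 to MARCKSL1 (0.191), IFI35 (0.211) and HELZ2 (0.222). TAP2 was nearest to NUB1 (0.241), HLA-E (0.266) and ISG20 (0.270). The nearest gene of each of these 4 lay outside the 10, but far more outside genes than genes of the 10 were compared, so nothing is read from that.

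PSME2 was nearest to HLA-B (0.0830), B2M (0.0890) and GSDMD (0.157), and PSME1 was near to HLA-C (0.110) and PSMA5 (0.134), so the PA28 genes lay beside MHC class I chains. PSMB10 was nearest to USP15 (0.143), RBCK1 (0.146) and DYNLT1 (0.150). TAPBP was nearest to CLIC4 (0.138), CTSC (0.164) and STAT3 (0.199). ERAP1 was nearest to TNS3 (0.331), CTSC (0.373) and ADAR (0.386), and ERAP2 to PML (0.274), NMI (0.330) and NUB1 (0.337). For comparison, the median gene differed from these genes by 0.419 (PSME1) to 1.96 (TAP1).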

How the data were processed

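The authors deposited 1 matrix of raw counts, not normalized, in which each value is the number of UMIs of 1 gene or hashtag in 1 barcode. It was made with Cell Ranger 5.0.1 per the file headers, but with Cell Ranger 2.1.1 and GRCh38 per the submitters' processing notes. This difference was not resolved. Strand settings are not given in the sources used here. Human genes only were counted, so mouse host cells are not measured.

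Barcodes under 1000 genes or over 20% mitochondrial UMIs were removed. A cell was given its top pair of hashtags where the second reached 10 counts and 3 times the third. The 394 kept cells with no clear pair, which can include doublets, were left out, and no doublet caller was run. Counts were summed per hashed sample and divided by its total. Intervals are exact Poisson (levels and ratios) or Wilson (shares), at 95%, and cover counting error only. For the wide-range rule a lowest count under 3 was put at 3 counts, while the printed ratios use the counts as they are. Scripts used Python 3.11.15, numpy 2.4.6, scipy 1.17.1 and pandas 2.3.3 and were tested on simulated counts. Motif positions count from the RefSeq start site.

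The 10 genes, the comparison lists, the motifs and the 3 sets were chosen with earlier results of these data known. Genes named are the 10 genes, PSMB5, PSMB6 and PSMB7, the widest and narrowest of each list and members of lists that separated the sets, and the 3 most alike genes of each, of which 1 each for PSMB9 and PSME1 is not reported here; LAP3, POMP, PSMG1, PSMG3, PSME4, PSMC3, NPEPPS, TAPBPL, HLA-E, B2M, NLRC5, CALR, CANX, PDIA3, HSPA5 and HSP90B1 were picked from the lists after their values were seen, where they were not at a list's end. No test was run, since the sets come from the same counts. Alternatives were other scalings, filters on cells, hashtag rules, thinning, mean over cells and leaving out hashed samples.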

Additional observations from a re-analysis of the deposited data

Results flagged for a closer look

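In groups of 5 hashed samples, a sample was singled out where its gap to the nearest other, divided by the group's range, exceeded 0.71. This was looked at in 36 groups and met in 2. PSMB8 in the none set had a level of 0.749 in HTO3+HTO7, with a ratio of 0.754, and TAP2 in the TNF set had a level of 0.120 in HTO3+HTO5, with a ratio of 0.718. Chance alone singles out about 1 in 20 such groups.

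Cells outside the hashed samples also held UMIs of the 10 genes. The summed level was 15.1 in the 1731 removed barcodes (95% interval 14.9 to 15.4), whose median depth was 4507 UMIs. It was 22.2 in the 394 kept cells with no clear pair (21.8 to 22.6), with a median depth of 12899 UMIs, against 21.9 in the kept cells with a pair.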

How the results depend on the processing

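No paired analysis was possible because no label ties a hashtag pair to a tumour or replicate and no test was run. All 10 genes stayed higher in the both set than in the none set when any 1 hashed sample was left out, and 8 to 10 did under the 12 other alternatives. The share of all genes with that order was 8.57% in the main setting. It was 4.68% at a mitochondrial limit of 10%, where 8 of the 10 genes held it, and 13.4% under size factors, where all 10 did. Without a floor on the mean level it was 3.78%. The wide-range rule was met by 5 to 7 genes, beside 10.0% of all genes in the main setting, a share not counted under the alternatives. At a mitochondrial limit of 10%, which left 661 cells and 9 in HTO3+HTO5, 6 genes were higher in the both set than in the TNF set (2.89% of all genes) and 1, TAP1, was higher in the TNF set than in the none set (1.82%). The count for TNF over none was 1, TAPBP, after thinning (3.08%) and 7 without the 4 samples of fewest cells (6.90%). It was 7 without HTO3+HTO5, HTO3+HTO7 and HTO3+HTO9 (6.95%, an alternative chosen after seeing the data), and 3 to 7 with 1 sample left out. With 1 left out, the count of 7 was the one without HTO3+HTO5, whose share of all genes is given with the counts between sets above. The share of all genes, in parentheses, moved in the same direction as the count. The range of the summed level, highest over lowest, was 3.80, and became 4.27 under size factors, 5.39 at a mitochondrial limit of 10%, 4.25 after thinning, 4.14 as a mean over cells, 3.17 without the 4 samples of fewest cells, 3.17 without the HTO3 samples named, and 3.51 to 3.80 with 1 left out. The lowest immunoproteasome share was 14.2% at a mitochondrial limit of 10%, 27.1% without the 4 samples of fewest cells, 27.1% without the HTO3 samples named and 22.2% to 25.8% with 1 left out. The highest share was 65.1% at that mitochondrial limit, 68.1% after thinning and 62.9% to 66.1% with 1 left out. The cause of these shifts was not tested. Of 256 ranges of single genes under alternatives, 17 moved beyond their interval. Another 4 had no value because a hashed sample was at 0 counts.

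Depth limits the rarer genes: ERAP1, ERAP2 and TAP2 had under 10 UMIs in some hashed samples, and gaps between sets whose interval includes 1 were not detectable at this depth.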
